A study of Mus musculus with 6 samples.

Results

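Microtubule stabilizers and stathmins were represented by 10 genes: the microtubule-associated protein (MAP) genes *Map1a*, *Map1b*, *Map2*, *Map4* and *Mapt*, the end-binding protein genes *Mapre1*, *Mapre2* and *Mapre3*, and the stathmin genes *Stmn1* and *Stmn2*. They were picked by gene symbol, and each symbol matched 1 of the 40166 genes in the table. RNA had been sequenced in bulk from 6 tumors grown from YUMM3.3, a single BRAF-mutant mouse melanoma cell line, after injection under the skin of the lower back of C57BL/6 mice whose age and sex the labels do not give. After 17 days of treatment, 3 tumors came from mice given water as vehicle (replicates 7, 8 and 9) and 3 from mice given rigosertib (RGS) at 300 mg/kg (replicates 10, 11 and 12), both by oral gavage. The labels call the samples replicates and do not say whether each came from its own mouse, so the p-values measure only the spread between these samples, which may be partly technical. The study describes RGS as a RAS mimetic that may block signaling from RAS and disturb the binding of CRAF to polo-like kinase 1 (PLK1). It has also been described as an agent that disturbs microtubules, a point that is debated.

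Microtubules are hollow polymers of tubulin that grow and shrink from their ends, and the proteins encoded by these genes set how stable the polymer is. Structural MAPs bind along the lattice and stabilize it. End-binding proteins track the growing plus ends and recruit other factors there. Stathmins bind free tubulin and promote shrinkage, an activity that phosphorylation switches off when a cell enters mitosis. *Map2*, *Mapt* (which encodes tau), *Map1a*, *Map1b* and *Stmn2* are best known from neurons, whereas *Map4*, *Mapre1* and *Stmn1* are used by many dividing cells.

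RGS tumors had higher expression of *Map1b*, *Mapre2* and *Mapre3* and lower expression of *Stmn1* than vehicle tumors. *Mapre3* differed by 2.93-fold, *Map1b* by 2.55-fold and *Mapre2* by 2.15-fold, while *Stmn1* was 1.59-fold lower. The other 6 genes did not pass the threshold, an adjusted p under 0.05 from edgeR's quasi-likelihood test. All 10 genes passed the filter on low counts, a median of at least 5 counts in at least 1 group. *Map2* passed it through the vehicle tumors only, since its median count was 20 with vehicle and 4 with RGS. Of the 10 genes, 3 were called higher and 1 lower. Among all 15355 genes tested, 16.3% were called higher and 16.5% lower. The values of the 3 RGS tumors lay entirely above or below those of the 3 vehicle tumors for 7 of the 10 genes, beside 45.8% of all genes tested. The median log2 fold change was 0.40 over the 10 genes and -0.05 over all genes tested.

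**Figure D1:**
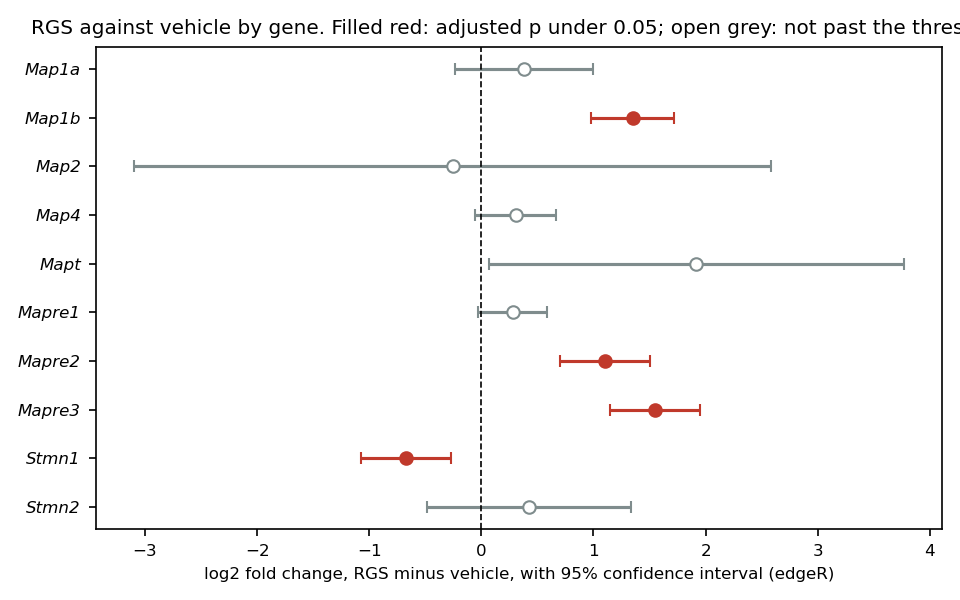
Log2 fold change of each gene, RGS minus vehicle, as points with 95% confidence intervals as bars, from edgeR's fit across all tested genes (3 tumors per group). *Map1b*, *Mapre2*, *Mapre3* and *Stmn1* are past the threshold, and the interval of *Map2* runs from -3.10 to 2.59.

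Library totals ran from 22793087 to 32555494 counts with vehicle and from 13837932 to 21617368 with RGS. After random thinning to the smallest total, the same 4 of the 10 genes were called. Mitochondrial genes took 2.13 to 3.20% of the counts with vehicle and 5.60 to 8.22% with RGS, and with these genes left out of the fit the same 4 of the 10 genes were called. Cytosolic ribosomal protein genes took 5.66 to 10.2% with vehicle and 3.15 to 3.68% with RGS, and their part in the results was not tested. The labelled tissue is a melanoma tumor, but the melanocytic markers *Dct*, *Tyr*, *Mlana* and *Slc45a2* and the leukocyte markers *Ptprc*, *Cd3e*, *Cd8a* and *Adgre1* had 0 counts in all 6 libraries. *Sox10* had 18 counts in RGS replicate 11 and none elsewhere. Of the same melanocytic list, *Mitf* was counted in every library, with group means of 5.45 CPM with vehicle and 7.43 CPM with RGS. *Pmel* had at most 25 counts per library. Bulk melanoma tumors usually hold the transcripts found here at or near 0. It is thus in doubt whether these libraries are whole tumor tissue, and they are called tumors here only as labelled. Of the 3 leukocyte markers tested, *Laptm5* and *Cd53* were higher in RGS tumors and *Cd68* was not called (group means of 62.5 CPM with vehicle and 74.03 CPM with RGS). The shares were 66.7% higher and 0% lower, beside 16.3% and 16.5% of all genes tested. The summed level of that list was 245 to 313 CPM with vehicle and 1007 to 1095 CPM with RGS, most of it *Laptm5*, with group means of 176 and 900.2 CPM. The summed level of 7 fibroblast markers was 404 to 600.5 CPM with vehicle and 294 to 319.9 CPM with RGS, with 4 of 6 tested lower and 1 higher. These were 66.7% lower and 16.7% higher, beside 16.5% and 16.3% of all genes tested. The part of either list in the results was not tested. In bulk RNA, fewer cells of a type and less RNA per cell cannot be told apart.

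Levels of different genes are compared here as CPM per kb, the counts of a gene relative to the total of its library after TMM scaling (CPM) and per kilobase of the gene length in the table. That length covers the exons of all annotated transcripts of a gene, which need not be the transcripts expressed. The order of genes and the ratios between them depend on it. In vehicle tumors the order was led by *Stmn1* at 32.7 ± 3.41 CPM per kb (SD, n = 3). *Map4* followed at 18.2 ± 4.55 and *Mapre1* at 17.6 ± 0.559 CPM per kb, and these neighbours did not differ beyond their spread. *Map1b* (8.24 ± 2.03) and *Mapre3* (6.98 ± 1.44) came next, again with overlapping ranges, before *Mapre2* at 2.43 ± 0.262 CPM per kb. *Map1a* and *Stmn2*, at 0.921 ± 0.191 and 0.755 ± 0.187 CPM per kb, also overlapped. *Mapt* at 0.0825 ± 0.0157 and *Map2* at 0.0422 ± 0.000923 CPM per kb closed the order.

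In RGS tumors the 5 most abundant genes stood at nearly the same level per length. *Map4* was at 22.5 ± 1.24, *Mapre1* at 21.4 ± 0.733, *Map1b* at 20.99 ± 1.75, *Stmn1* at 20.5 ± 4.38 and *Mapre3* at 20.5 ± 1.11 CPM per kb (SD, n = 3 each), and each overlapped the next. The 5 rarer genes kept their order, with *Mapre2* at 5.24 ± 0.676, *Map1a* at 1.20 ± 0.328, *Stmn2* at 1.01 ± 0.0458, *Mapt* at 0.313 ± 0.0226 and *Map2* at 0.0347 ± 0.0478 CPM per kb.

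**Figure D2:**
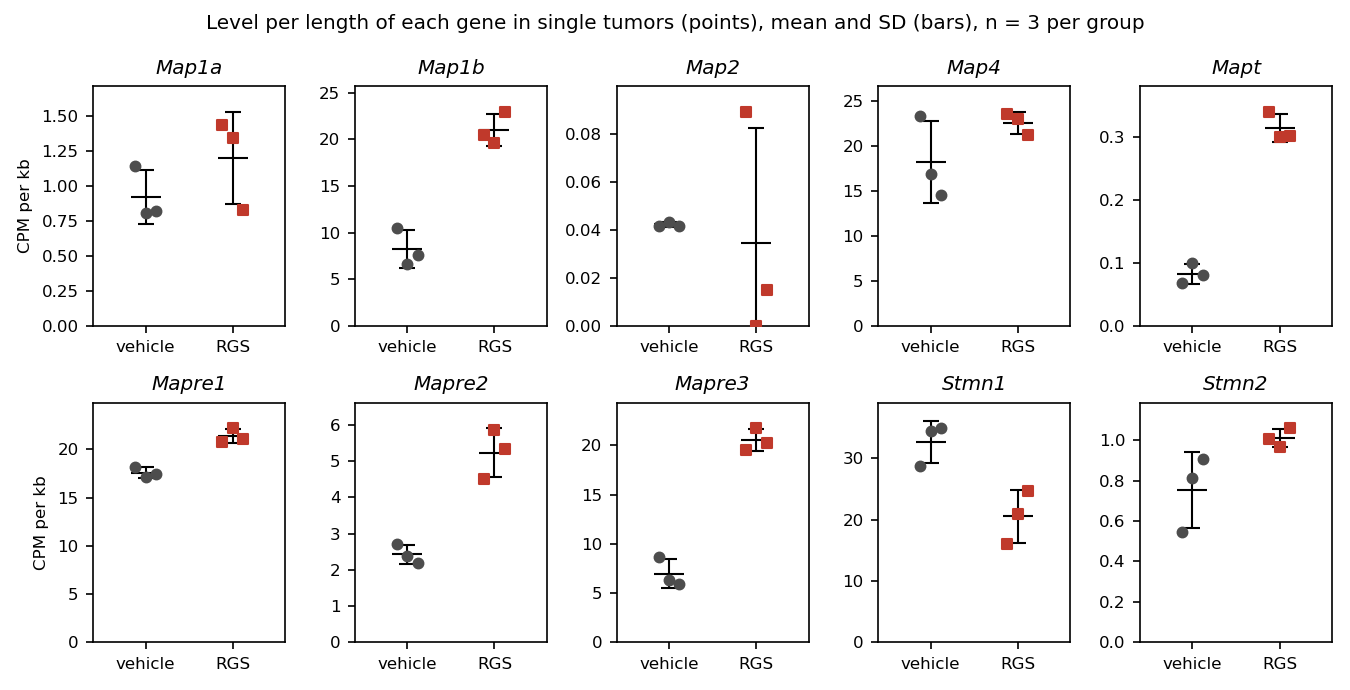
Level of each gene in CPM per kb in single tumors, vehicle as grey circles and RGS as red squares, with the group mean and SD as black bars and an axis from 0 in each panel. The groups separate for *Map1b*, *Mapt*, *Mapre1*, *Mapre2*, *Mapre3*, *Stmn1* and *Stmn2*, while *Map1a*, *Map2* and *Map4* overlap.

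The end-binding proteins EB3, EB2 and EB1 are encoded by *Mapre3*, *Mapre2* and *Mapre1*. EB1 is the general plus-end tracker of animal cells, EB3 is a close relative that is prominent in neurons and muscle, and EB2 binds plus ends more weakly. The sequences around the transcription starts of *Mapre3*, of *Mapre1* and, among the MAPs, of *Map1b* are shown because *Mapre3* and *Map1b* had the largest called differences of the 10 genes and *Mapre1* is the relative of *Mapre3* that was not called. Each line gives the gene and the 250 bases before and 50 bases after the start, 5′ to 3′ on the strand of the gene, from RefSeq (GRCm38.p6).
Mapre3 (chr5:30814391-30814690, plus strand): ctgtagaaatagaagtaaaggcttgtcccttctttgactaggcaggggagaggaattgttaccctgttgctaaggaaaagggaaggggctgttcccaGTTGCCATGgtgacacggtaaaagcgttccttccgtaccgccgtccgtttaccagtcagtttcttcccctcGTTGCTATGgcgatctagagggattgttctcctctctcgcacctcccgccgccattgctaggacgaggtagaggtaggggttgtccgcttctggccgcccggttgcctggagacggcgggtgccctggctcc
Mapre1 (chr2:153741037-153741336, plus strand): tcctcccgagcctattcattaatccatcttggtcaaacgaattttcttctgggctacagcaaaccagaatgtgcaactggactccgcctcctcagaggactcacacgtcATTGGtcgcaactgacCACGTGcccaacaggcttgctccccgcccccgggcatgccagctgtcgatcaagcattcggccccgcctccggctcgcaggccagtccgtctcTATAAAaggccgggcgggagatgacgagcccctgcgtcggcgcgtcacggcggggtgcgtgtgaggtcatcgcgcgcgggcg
Map1b (chr13:99516553-99516852, minus strand): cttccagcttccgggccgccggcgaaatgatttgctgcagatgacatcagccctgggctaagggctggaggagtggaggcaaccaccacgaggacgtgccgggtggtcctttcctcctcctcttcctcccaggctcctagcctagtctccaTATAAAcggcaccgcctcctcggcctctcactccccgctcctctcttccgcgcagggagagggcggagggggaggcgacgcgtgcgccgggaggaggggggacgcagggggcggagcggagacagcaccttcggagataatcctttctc
Capitals mark letters of the motifs searched on both strands, which did not overlap each other. *Mapre3* has 2 matches to GTTGCNATG, letters of the X-box bound by RFX factors, starting 153 and 82 bases before the start. Among 32851 promoters of the same length, 1.44% hold at least 1 match and 17 hold 2 or more. The first start of *Mapre3* was used, and its second start, on chromosome 5 from 30861557 to 30861856, has no match to any of the motifs searched. *Mapre1* has a CCAAT box (CCAAT, in 37.4% of promoters), an E-box (CACGTG, in 7.15%) and a TATA box (TATAAA, in 13.6%). *Map1b* has a TATA box motif at 99 bases before its start. The AP-1 motif TGANTCA (7.81% of promoters), the E2F motif TTTNGCGC (1.38%), the cyclic AMP response element TGACGTCA (1.79%) and TTCAGCACC, letters of the neuronal silencer element bound by REST (0.371%), were not in the windows of *Map1a*, *Map1b*, *Map2*, *Map4*, *Mapre1* or *Mapre3*. The X-box was added to the search after the sequence of *Mapre3* had been read. *Mapt*, *Mapre2*, *Stmn1* and *Stmn2* had no window among the promoters searched, so their promoters were not examined.

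*Mapre3* (ENSMUSG00000029166.14, chromosome 5 of GRCm38 from 30814641 to 30866106) was measured at 29.8, 22.05 and 20.5 CPM in the vehicle tumors and at 67.7, 75.1 and 69.96 CPM in the RGS tumors. The lowest RGS tumor had 2.27-fold the CPM of the highest vehicle tumor. The groups differed by 1.55 on the log2 scale, with a standard error of 0.19 and an adjusted p of 5.98e-06 in edgeR's quasi-likelihood test, and 19.3% of all tested genes had a larger absolute change. *Mapre2* (ENSMUSG00000024277.14) was at 27.7, 24.2 and 22.5 CPM in the vehicle group and at 46.04, 59.7 and 54.5 CPM in the RGS group. The groups did not overlap, and the lowest RGS tumor was replicate 10. For *Mapre2* edgeR gave a log2 fold change of 1.10, with a standard error of 0.19 and an adjusted p of 0.000204. *Mapre1* (ENSMUSG00000027479.14, chromosome 2 from 153741274 to 153773310) was at 142, 134 and 136 CPM with vehicle and at 162, 173 and 164 CPM with RGS. All 3 RGS tumors were above all 3 vehicle tumors and the spread within each group was small, but the log2 fold change of 0.28 (95% confidence interval -0.03 to 0.59) did not pass the threshold (adjusted p = 0.152, edgeR).

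The makeup of the end-binding gene family followed these differences. Summed over the 3 genes, the level was 26.98 ± 2.22 CPM per kb in vehicle tumors and 47.1 ± 2.47 CPM per kb in RGS tumors (SD, n = 3 each). *Mapre1* made up 61.6, 66.2 and 68.2% of that sum in the vehicle tumors and 46.3, 44.6 and 45.2% in the RGS tumors. *Mapre3* made up 29.2, 24.7 and 23.2% with vehicle and 43.6, 43.7 and 43.4% with RGS. The ratio of *Mapre3* to *Mapre1*, each per length, was 0.396 ± 0.0696 in vehicle tumors and 0.960 ± 0.0195 in RGS tumors (SD, n = 3 each), so the 2 genes were close to equal per length in every RGS tumor. In CPM, without the gene lengths, the RGS group means were 70.9 for *Mapre3* and 167 for *Mapre1*. The ratio per length does not depend on the scaling of the libraries, but it does depend on the gene lengths used. It is given as a description with no test. *Mapre2* stayed the smallest share, at 9.001 ± 0.331% with vehicle and 11.1 ± 0.909% with RGS. Skeletal muscle markers, listed because EB3 is used there, summed to 9.39 to 13.7 CPM with vehicle and 7.30 to 10.6 CPM with RGS. *Ckm*, *Myh4* and *Myh1* had 0 counts in all 6 libraries. Of 4 tested, 1 was higher and 0 lower (25% and 0%, beside 16.3% and 16.5% of all genes tested). It was *Des*, with 0 counts in each vehicle tumor and 24, 5 and 5 with RGS (adjusted p = 0.0166, edgeR). *Mylpf*, *Tnnt3* and *Ttn* had the highest levels and were not called, with log2 fold changes of -0.21, -0.80 and -0.70.

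**Figure D3:**
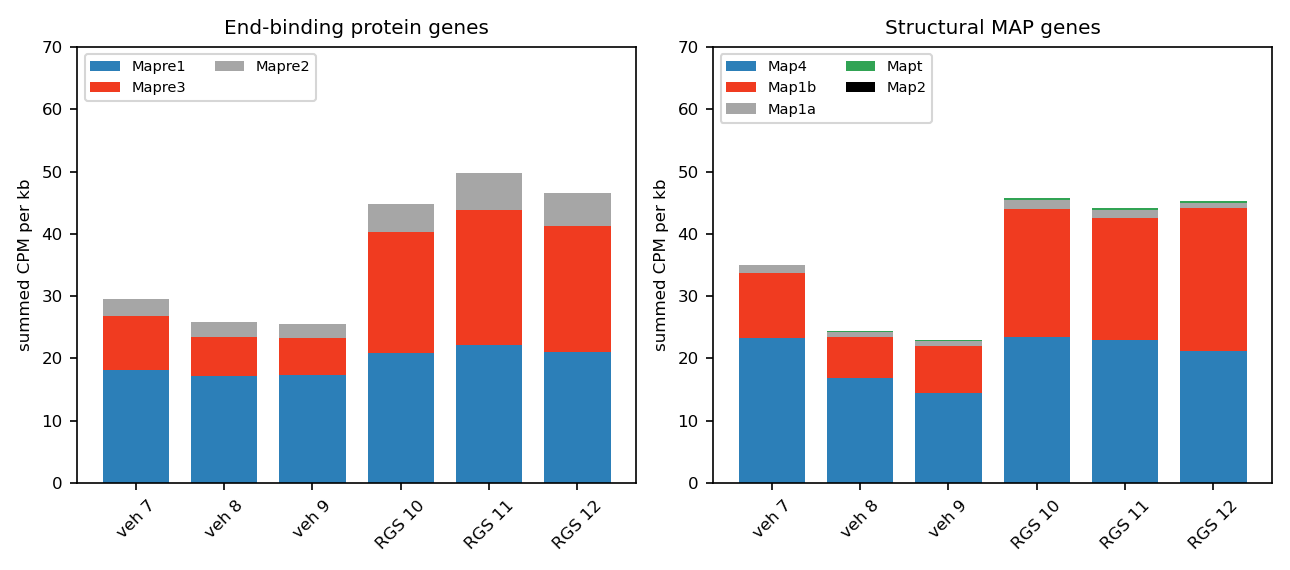
Stacked bars of CPM per kb for the end-binding protein genes (left) and the structural MAP genes (right) in each of the 3 vehicle (veh) and 3 RGS tumors. The *Mapre3* and *Map1b* segments are taller in every RGS tumor than in any vehicle tumor, while the *Map4* segment of vehicle replicate 7 reaches the RGS range.

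*Map1b* encodes a structural MAP known from growing axons. It lies on chromosome 13 from 99421446 to 99516540 (ENSMUSG00000052727.6, minus strand). Its level was 167, 105 and 119.7 CPM in the vehicle tumors and 324, 311 and 364 CPM in the RGS tumors. The lowest RGS tumor had 1.86-fold the CPM of the highest vehicle tumor. This gave a log2 fold change of 1.35, with a standard error of 0.18 and an adjusted p of 1.095e-05 in edgeR. *Map1a*, which encodes its relative of mature neurons (ENSMUSG00000027254.13, chromosome 2 from 121289600 to 121310832), was at 13.9, 9.76 and 9.97 CPM with vehicle and at 17.4, 16.3 and 10.03 CPM with RGS. RGS replicate 12 lay within the vehicle range, so the groups overlapped. The log2 fold change of 0.38 had a 95% confidence interval of -0.24 to 0.995 (adjusted p = 0.349, edgeR). *Map1a* overlaps *Ppip5k1* on the opposite strand over 272 bases, and *Ppip5k1* had 113 to 311 counts per tumor beside 164 to 487 for *Map1a*, while how reads there were assigned by strand is not given in the sources used here.

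*Map4* encodes the structural MAP of most non-neuronal cells (ENSMUSG00000032479.15, chromosome 9 from 109931460 to 110083955). It was at 352, 255 and 219 CPM with vehicle and at 356, 347 and 319.9 CPM with RGS. The vehicle tumors spread widely, and replicate 7 alone reached the RGS range. The log2 fold change was 0.31 (95% confidence interval -0.05 to 0.67, adjusted p = 0.183 from edgeR). Without vehicle replicate 7 it was 0.52 and passed the threshold (adjusted p = 0.00252, edgeR). *Map1b* made up 30.0, 27.2 and 32.9% of the summed level per length of the 5 structural MAP genes with vehicle and 44.6, 44.4 and 50.8% with RGS, while *Map4* made up 66.4, 69.0 and 63.0% and then 51.4, 51.9 and 46.7%. The ratio of *Map1b* to *Map4* was 0.456 ± 0.0639 in vehicle tumors and 0.937 ± 0.130 in RGS tumors (SD, n = 3 each).

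The neuronal genes *Mapt* and *Map2* had few counts, at most 54 and 31 per tumor. In vehicle tumors *Mapt* (ENSMUSG00000018411.17, chromosome 11 from 104231390 to 104332090) had 18, 21 and 14 counts, and in RGS tumors 54, 30 and 37, which are 0.514, 0.748 and 0.602 CPM against 2.56, 2.26 and 2.26 CPM. The groups were far apart with little spread inside each. The log2 fold change of 1.92 (standard error 0.88) did not pass the threshold in edgeR (adjusted p = 0.104). It passed with DESeq2 (adjusted p = 0.0251) and with limma voom (adjusted p = 0.0307). *Map2* (ENSMUSG00000015222.17, chromosome 1 from 66175273 to 66442583) had 24, 20 and 16 counts with vehicle and 31, 0 and 4 with RGS. A count of 0 in RGS replicate 11 allows up to 0.226 CPM (3 counts; counting error only, since reads are not independent molecules). The RGS tumors lay on both sides of the vehicle tumors, and no difference in *Map2* was detectable at this depth (log2 fold change -0.26, 95% confidence interval -3.10 to 2.59, adjusted p = 0.905 from edgeR).

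Neuronal marker genes other than the 10 genes moved in the same samples. Of 13 listed, 10 were tested, 7 were higher and 1 was lower in RGS tumors. These were 70% and 10%, beside 16.3% and 16.5% of all genes tested. The lower one was *Syt1*, with 41, 17 and 41 counts with vehicle and 2, 0 and 0 with RGS (adjusted p = 0.0256, edgeR). *Prph* and *Elavl4* were not called, with log2 fold changes of -0.53 and -1.44. The summed level of the 13 markers was 135 to 146 CPM with vehicle and 819 to 960.2 CPM with RGS. Most of it came from the neurofilament genes *Nefl* and *Nefm* and from *Uchl1*, with group means of 24.96 and 449 CPM, 22.2 and 201 CPM, and 52.8 and 107 CPM for vehicle and RGS. The neurofilament gene *Nefh* and the internexin gene *Ina* had 0 counts in all 6 libraries, and *Rbfox3*, a marker of mature neurons, had 4 counts in vehicle replicate 7 and none in any RGS tumor. The part of neuronal genes or cells in the values of *Map1b*, *Mapre3* and *Mapt* was not tested.

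*Stmn1* was the only gene of the 10 that was called lower. It encodes stathmin, the tubulin-binding protein of proliferating cells (ENSMUSG00000028832.11, chromosome 4 from 134468320 to 134473843). It was at 55.4, 66.2 and 67.1 CPM in the vehicle tumors and at 30.7, 40.2 and 47.5 CPM in the RGS tumors. The groups did not overlap, and the lowest vehicle tumor had 1.17-fold the CPM of the highest RGS tumor. In edgeR the log2 fold change was -0.67, with a standard error of 0.19 and an adjusted p of 0.0114. *Stmn1* has a gene length of 1922 bases, and tested genes under 2 kb had a median log2 fold change of -0.20. In a fit with an offset for gene length, *Stmn1* was at -0.50 and kept its call (adjusted p = 0.0253, edgeR). The call was lost without vehicle replicate 8 (log2 fold change -0.62, adjusted p = 0.0606, edgeR) and without RGS replicate 10 (-0.52, adjusted p = 0.0719, edgeR). Markers of dividing cells were lower in the same tumors. Of 16 markers, all tested, 13 were lower and 0 higher (3 did not pass the threshold). The share lower was 81.2%, beside 16.5% of all genes tested. The summed level of the 16 markers was 1121 to 1154 CPM with vehicle and 496 to 582 CPM with RGS. *Pcna*, *Top2a* and *Mki67* had the highest levels among them, with group means of 187 and 143, 175 and 75.2, and 133 and 48.5 CPM. *Pcna* was not among the 13, as it did not pass the threshold (adjusted p = 0.0971, edgeR), and its groups overlapped. The part of cell division in the lower *Stmn1* was not tested.

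*Stmn2* encodes a stathmin of growing neurites that is anchored to membranes (ENSMUSG00000027500.10, chromosome 3 from 8509360 to 8561606). It was at 3.05, 4.56 and 5.07 CPM with vehicle and at 5.63, 5.42 and 5.93 CPM with RGS. The RGS tumors were all higher, by a margin smaller than the spread among vehicle tumors, and the log2 fold change of 0.42 (95% confidence interval -0.48 to 1.33) did not pass the threshold (adjusted p = 0.491, edgeR). *Stmn2* made up 2.23 ± 0.342% of the summed level per length of both stathmin genes in vehicle tumors and 4.82 ± 0.968% in RGS tumors (SD, n = 3 each). The rest was *Stmn1*. Of the other stathmin genes of the mouse, *Stmn3* had 0 counts in every library. *Stmn4*, known mainly from the nervous system, was counted 9, 0 and 0 times with vehicle and 193, 112 and 197 times with RGS. In CPM, the lowest RGS tumor had 32.9-fold the value of the highest vehicle tumor (8.43 and 0.257 CPM). The adjusted p was 4.94e-06 (edgeR), and the fitted log2 fold change of 6.58 rests on 2 vehicle libraries at 0.

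Genes that work with the MAPs, end-binding proteins and stathmins were followed in lists of 122 genes, of which 100 were tested. Of these, 29 were higher and 16 lower in RGS tumors (29% and 16%), with a median log2 fold change of 0.20. Among all genes tested, 16.3% were higher and 16.5% lower, so the share lower was close to that of all genes. With library size only as the scaling the counts were 19 higher and 17 lower, and for all genes 1870 higher and 3152 lower in place of 2503 and 2533. That scaling moves the median log2 fold change of all genes from -0.05 to -0.19, and the 3 higher and 1 lower gene among the 10 kept their calls under it.

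Among the plus-end partners that end-binding proteins recruit, 8 of 22 tested genes were higher and 5 lower. These were 36.4% and 22.7%, beside 16.3% and 16.5% of all genes tested. *Clip2*, which encodes a linker protein of microtubule ends, had a mean of 57.4 ± 6.71 CPM in vehicle and 129.9 ± 3.95 CPM in RGS tumors (SD, n = 3 each). *Nav1*, a neuron navigator, had group means of 68.8 and 163 CPM. *Tacc2* had a log2 fold change of 0.93. The mitotic spindle genes *Tacc3* and *Gtse1* fell by 1.99 and 1.65 on the log2 scale, and *Nav3* had a log2 fold change of -0.76. Members of the *Tacc* and *Nav* families were thus called in both directions.

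Of the other MAPs, 13 were tested, 4 were higher and 1 was lower (30.8% and 7.69%, beside 16.3% and 16.5% of all genes tested). *Map7d1* and *Eml3* had log2 fold changes of 0.86 and 1.11, and *Dclk1*, a kinase of the doublecortin family, 0.88. *Map6*, which encodes a MAP that protects microtubules from cold, was the one that fell, with 111 ± 16.4 CPM in vehicle tumors and 60.7 ± 5.22 CPM in RGS tumors (SD, n = 3 each). Of 11 tested genes of minus ends and nucleation, *Tubg1* (gamma-tubulin, log2 fold change 0.87) and *Camsap2* (log2 fold change 0.63) were higher and the spindle factor *Tpx2* (log2 fold change -1.14) was lower. *Camsap2*, whose groups overlapped, was named after its values were seen, to complete that count. Of the 11 genes, 18.2% were higher and 9.09% lower, beside 16.3% and 16.5% of all genes tested.

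Severing enzymes and depolymerases, which like stathmin take microtubules down, had 2 of 13 tested genes higher and 5 lower (median log2 fold change -0.59). These were 15.4% and 38.5%, beside 16.3% and 16.5% of all genes tested. The mitotic kinesin gene *Kif18a* was at 15.3 ± 2.08 CPM in vehicle and 2.45 ± 1.29 CPM in RGS tumors, and *Fignl1* was at 20.7 ± 2.62 and 5.11 ± 1.25 CPM (SD, n = 3 each). *Katnbl1* had a log2 fold change of -1.67. *Fignl2* was higher, with a log2 fold change of 0.87, and lost the call with library size only (adjusted p = 0.0697, edgeR) and without vehicle replicate 8 (0.0892), vehicle replicate 9 (0.0931) or RGS replicate 12 (0.153).

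Of 24 tested kinases and phosphatases that act on MAPs or stathmins, 9 were higher and 2 lower. These were 37.5% and 8.33%, beside 16.3% and 16.5% of all genes tested. *Brsk1*, a neuronal polarity kinase that acts on tau, had 27.2 ± 5.11 CPM in vehicle and 83.1 ± 5.91 CPM in RGS tumors (SD, n = 3 each). *Mark2*, which detaches MAPs from microtubules, and *Ppp2r2a*, a regulatory subunit of the phosphatase PP2A, had log2 fold changes of 0.89 and 0.81. *Cdk1*, which phosphorylates stathmin in mitosis and is also on the list of dividing cells, had a log2 fold change of -0.88, and *Mapk13* one of -0.90. Of 16 tested tubulin modifying enzymes, 3 were higher and 2 lower (18.8% and 12.5%, beside 16.3% and 16.5% of all genes tested). The glutamylase subunit gene *Ttll1* had 24.5 ± 4.32 CPM in vehicle and 85.7 ± 12.8 CPM in RGS tumors, and the tubulin deacetylase gene *Hdac6* had 43.2 ± 9.62 and 91.2 ± 13.5 CPM (SD, n = 3 each). All calls of related genes are from edgeR's quasi-likelihood test across the 15355 genes. *Ttll5* had a log2 fold change of 0.72, and *Ttll11* and *Ttll4* of -1.69 and -0.61.

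**Figure D4:**
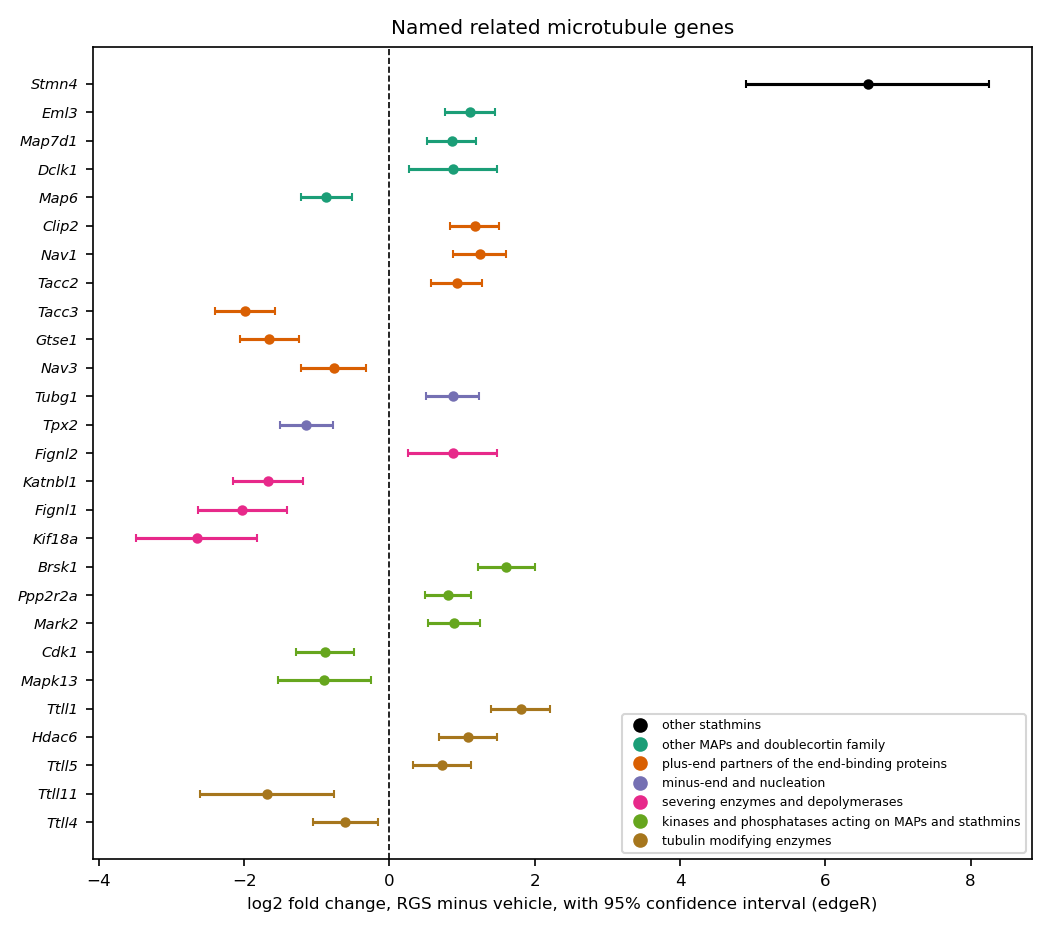
Log2 fold change, RGS minus vehicle, of the named genes that work with the MAPs, end-binding proteins and stathmins, as points coloured by list with 95% confidence intervals as bars (edgeR, 3 tumors per group). *Stmn4* stands furthest to the right at 6.58 and *Kif18a* furthest to the left at -2.65.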

How the data were processed

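Bulk RNA from 6 YUMM3.3 tumors was sequenced as paired-end reads of 150 bases. The deposited table holds unnormalized counts of reads per gene for each tumor, beside each gene's position and length. The submitters' processing notes name mm10, cutadapt 1.18, FastQC 0.11.7, STAR 2.7.1a and featureCounts 1.6.4, while the strand setting and the handling of reads that match several genes are not given in the sources used here, so overlapping genes are uncertain and isoforms cannot be separated. The positions and gene length of the 10 genes matched GENCODE M21 (GRCm38).

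Counts of all genes with a median of at least 5 in at least 1 group, as in the study's methods, were scaled by TMM and tested in R 4.3.3 with edgeR 4.0.16 (quasi-likelihood F test), with p-values adjusted by Benjamini-Hochberg across all 15355 genes. Standard errors were derived from the log2 fold change and its F statistic. The alternatives were DESeq2 1.42.0, which the study used, limma 3.58.1 voom with sample weights, robust dispersions, other scaling and filters, an offset for gene length, mitochondrial genes left out, thinning to the smallest library and each tumor left out in turn.

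The 10 genes, the lists of related and marker genes, written from general knowledge of these genes, and the tests were chosen with earlier results of these data known. The named related genes are up to 3 per list and direction with the smallest adjusted p, no overlap between groups and a mean of at least 1 CPM, and *Stmn3* and *Stmn4*. From marker lists, genes at or near 0 and the 3 with the highest level were named. *Syt1*, *Prph*, *Elavl4* and *Des* were named after their values were seen. Some genes that meet these rules are not reported here.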

Additional observations from a re-analysis of the deposited data

How the results depend on the processing

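Over 17 other fits, *Map1b*, *Mapre2* and *Mapre3* kept their direction and their calls, with log2 fold changes from 1.20 to 1.56, 0.96 to 1.20 and 1.41 to 1.73. *Map1a*, *Map2* and *Stmn2* passed the threshold in none of the 17. limma voom called 6 of the 10 genes higher, adding *Map4*, *Mapt* and *Mapre1*, and DESeq2 called 4, adding *Mapt*, with the cause not tested. With each tumor left out in turn, 3 to 4 of the 10 genes were higher and 0 to 1 lower. Of the related genes, 19 to 37 were then higher and 10 to 16 lower, the lowest counts of 19 and 10 coming without vehicle replicate 8. With library size only, 19 related genes were higher. Requiring in addition a log2 fold change of 1 or more in size left 3 of the 10 genes higher and 0 lower, 7 related genes higher and 9 lower, and 1168 of all genes higher and 1450 lower, by its own construction. No log2 fold change of the 10 genes or of the named related genes that was called in any fit changed sign there, and *Dclk1*, *Fignl2*, *Mapk13*, *Ttll4*, *Ttll5* and *Ttll11* each lost their call in at least 1 fit. In edgeR, *Dclk1* lost it with library size only and without vehicle replicate 8 or 9 or RGS replicate 10 or 11 (adjusted p 0.0597 to 0.0905), *Mapk13* without vehicle replicate 8 or RGS replicate 10 or 11 (0.0952 to 0.166), *Ttll4* without vehicle replicate 8 or 9 or RGS replicate 10 or 11 (0.0766 to 0.126), *Ttll5* without RGS replicate 10 (0.0506) and *Ttll11* without vehicle replicate 8 (0.0546). Scaling moved some levels per length by more than their SD. With library size only these were *Map2* (0.0444 CPM per kb) and *Mapre1* (18.5) with vehicle and *Mapre1* (20.3) and *Stmn2* (0.962) with RGS, and without mitochondrial genes *Map2* (0.0444) and *Mapre1* (18.5) with vehicle and *Mapre1* (22.4) and *Stmn2* (1.06) with RGS. No paired analysis was possible because the labels share no replicate number between the groups. Depth limits *Map2* and *Mapt*, with at most 31 and 54 counts per tumor.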
